A study of Mus musculus with 6 samples.

Results

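The genes described here are interferon-induced genes and their regulators, measured in type II alveolar epithelial cells of mice. The members are 49 genes chosen by name, and 46 of them had a probe set that the platform annotation gives to that gene alone, out of 19938 genes so measured. A gene with several such probe sets was read from its brightest. Ifi44 was not measured this way, and Isg15 and Gbp2 shared their probe sets with another gene, so these 3 are outside the counts.

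Each array held RNA pooled from 3 mice aged 8 weeks, and 3 pools of Gpr116 knockout mice were compared with 3 control pools. Gpr116, now named Adgrf5, is an adhesion G protein-coupled receptor of the lung. All mice carried 2 transgenes, SP-C-rtTA and (tetO)7CMV-Cre, so the controls had the Cre system too. The knockout mice were Gpr116flx/flx as well and are labelled triple-transgenic, and the double-transgenic controls are labelled littermates, with no floxed allele named. The surfactant protein C (SP-C) promoter directs rtTA, a doxycycline-dependent activator, to epithelial cells that make this protein. When doxycycline was given is not stated in the sources used here. Cells were isolated with collagenase and differential plating, which can leave other lung cells in the preparation. The comparison asked what loss of Gpr116 changes in the transcripts of these cells, and for these genes whether the interferon program differed.

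The Adgrf5 probe set read 11.89, 11.78 and 11.87 on the knockout arrays and 11.49, 11.53 and 11.51 on the control arrays (log2 values). It was thus not lower in the knockout pools. The position of these probes against the floxed exons is unknown here, so the reading does not check the genotype, and the arrays are called knockout and control by their labels alone. Pools of both sexes were present: by Xist and the Y-linked genes, knockout 2 and control 1 were male and the other 4 were female. Markers of type II cells averaged 12.24 to 12.29 on the knockout arrays and 12.18 to 12.21 on the control arrays. Markers of T and NK cells averaged 5.83 on knockout 1 and 5.26 to 5.35 on the other arrays. Of the 10 measured, 7 were highest on knockout 1, and Cd3e, Cd3g, Cd8a and Cd4 stood there at least 0.5 above every other array. Ncr1, Klrb1c and Prf1 were not highest there. Of the 10, 6 lay in the lowest 25% of genes by level, Cd3g among them. Ciliated cell markers averaged 8.59, 8.13 and 7.97 on knockout 1, 2 and 3 and 9.20 to 9.28 on the controls. Neutrophil markers averaged 5.20, 5.13 and 5.12 on the knockout arrays and 5.04, 5.10 and 4.95 on the controls. This was a difference of 0.12 without overlap in the direction of the members, with 4 of the 6 in the lowest 25% of genes by level. Of the 6, Retnlg alone had all knockout values above all controls (5.98, 6.12 and 5.68 against 5.44, 5.44 and 5.17). The others, such as S100a8 (4.61, 4.67 and 4.64 against 4.65, 4.67 and 4.61), overlapped between the groups. Fibroblast markers averaged 10.03 on knockout 2, 9.49 on knockout 1 and 3 and 9.64 to 9.84 on the controls. All were highest on knockout 2 except Dcn, which read 10.63 there, 11.41 on knockout 1 and 11.54, 11.12 and 10.92 on the controls. Macrophage and monocyte markers averaged 5.62 to 5.68 on the knockout arrays and 5.61 to 5.68 on the controls. The part of these other cells in the values below was not tested, and in such preparations fewer cells of a type and less RNA per cell cannot be told apart.

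Interferons are cytokines that cells release on sensing viral nucleic acid. Type I interferons bind a receptor of the Ifnar1 and Ifnar2 chains, and interferon gamma binds one of the Ifngr1 and Ifngr2 chains. Receptor-bound Jak kinases then phosphorylate Stat proteins, and a complex that holds Stat2 and Irf9 binds the interferon-stimulated response element (ISRE) in promoters, while Stat dimers bind the gamma-activated sequence (GAS). The genes switched on include sensors of viral RNA and DNA, proteins that block viral entry, translation or replication, and brakes such as Usp18. Alveolar epithelial cells are a target of respiratory viruses and respond to interferon.

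Most of these genes read slightly higher in the knockout pools, and few differences passed the test. A gene was called when limma, a moderated linear model fitted to all 19938 genes, gave a Benjamini-Hochberg adjusted p under 0.05. Of the 46 members 3 rose, 0 fell and 43 did not pass. The 3 were Ifit1, which binds foreign RNA, Zbp1, a sensor of Z-form nucleic acid, and the receptor chain Ifngr2. They were 6.52% of the members, against 3.36% of all genes called higher and 5.13% called lower. So few calls leave the members' share near that of all genes. The values themselves leaned one way more widely. The log2 difference, knockout minus control, was above 0 in 38 members (82.6%, against 51.9% of all genes). An unadjusted limma p under 0.05 was found in 15 members with higher values (32.6%, against 11.5%) and in 0 with lower values, where all genes had 10.6%. In 16 members every knockout array read higher than every control array (34.8%, against 14.8%), and in 1, Cmpk2, every knockout array read lower (12.8% of all genes). The median difference was 0.13 over the members and 0.0033 over all genes. The members were chosen with earlier results of these data known, so these shares are a description and not a test. The spread of values from array to array was wider among knockout pools, with a median SD of 0.19 for members on the knockout arrays and 0.0575 on the control arrays, against 0.0907 and 0.0624 for all genes.

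**Figure D1:**
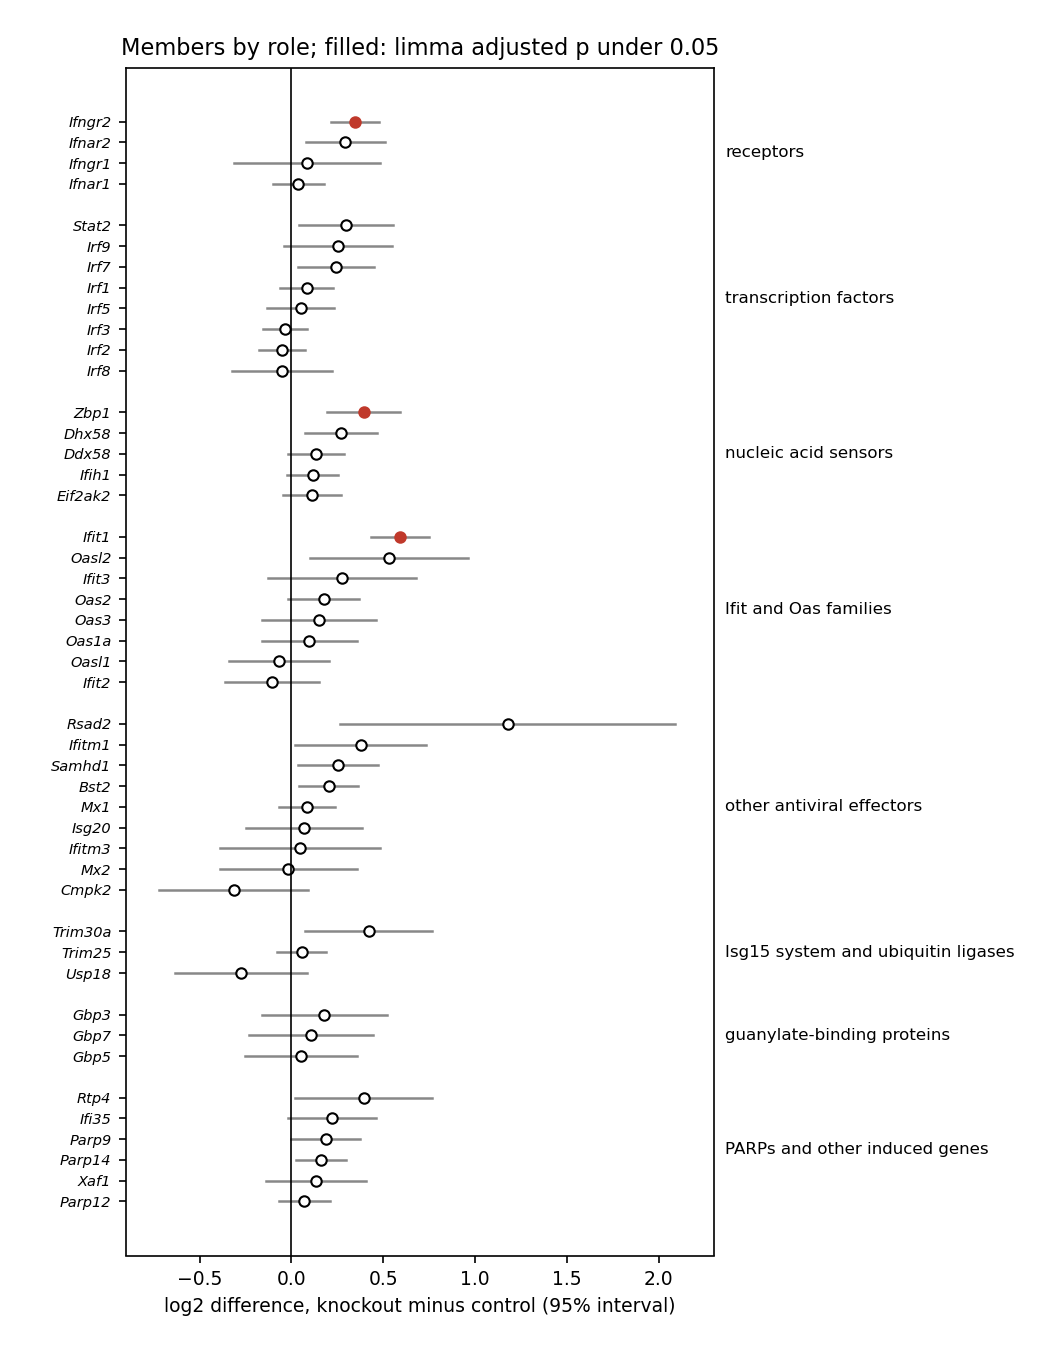
Log2 difference, knockout minus control (x axis), for the 46 measured members (y axis), grouped by role, with points for the difference and lines for limma's 95% confidence interval. Filled points mark Ifngr2, Zbp1 and Ifit1, the 3 with an adjusted p under 0.05, and 38 of the 46 points lie to the right of 0.

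The promoters of several members hold the letters to which the interferon-activated factors bind, and they are shown because many members are known as interferon-induced genes. The RefSeq promoter table (GRCm38.p6, 250 bases before to 50 after each transcript start) held 37 of the 46 members. It had no entry for Dhx58, Mx1, Mx2, Oas2, Parp14, Parp9, Rtp4, Usp18 and Zbp1. The ISRE core, written GAAA, 2 bases of any kind and GAAA again and searched on both strands, was found in 16 of the 37 members (43.2%) and in 3.99% of the 27025 genes of the table. The GAS core TTCNNNGAA, which reads the same on both strands, was found in 15 of the 37 (40.5%) and in 9.55% of all genes. Both were found in 7 members, and matches to the 2 cores overlapped in Bst2 and Ifitm3. Such a match is a description of the letters and not of binding. The 16 members with the ISRE core had a median log2 difference of 0.14, 15 of them above 0, and 1 (Ifit1) was called. The 21 members with a window but no ISRE core had a median of 0.0833, 16 of them above 0, and 1 (Ifngr2) was called. The ranges of the 2 sets overlapped, from -0.05 to 1.18 with the core and from -0.31 to 0.53 without it.

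The 170 bases before the start are printed 5′ to 3′ for 8 members, with ISRE core matches on either strand in capitals. They lie in GRCm38.p6 at chr19:34640719-34640888 (+ strand) for Ifit1, at chr19:34583359-34583528 (+ strand) for Ifit3, at chr5:120777660-120777829 (- strand) for Oas3 and at chr12:26456453-26456622 (- strand) for Rsad2. The others lie at chr8:71537473-71537642 (- strand) for Bst2, chr3:142530166-142530335 (+ strand) for Gbp7, chr12:26469045-26469214 (+ strand) for Cmpk2 and chr16:91546889-91547058 (+ strand) for Ifngr2. Ifit1 is the member with the smallest p and Rsad2 the one with the largest difference. Ifit3 shows the element in a second Ifit gene and Oas3, Bst2 and Gbp7 in genes of other families, and Cmpk2 and Ifngr2 are windows in which the letters were not found.

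Ifit1: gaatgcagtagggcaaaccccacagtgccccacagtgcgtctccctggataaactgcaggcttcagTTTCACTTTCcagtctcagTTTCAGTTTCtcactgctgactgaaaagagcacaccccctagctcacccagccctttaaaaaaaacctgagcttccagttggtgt

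Ifit3: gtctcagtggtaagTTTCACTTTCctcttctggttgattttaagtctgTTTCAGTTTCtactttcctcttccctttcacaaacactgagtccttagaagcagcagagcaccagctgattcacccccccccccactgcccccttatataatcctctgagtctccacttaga

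Oas3: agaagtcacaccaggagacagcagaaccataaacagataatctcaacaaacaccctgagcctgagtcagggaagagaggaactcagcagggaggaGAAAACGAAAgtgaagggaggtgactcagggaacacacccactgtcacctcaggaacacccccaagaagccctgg

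Rsad2: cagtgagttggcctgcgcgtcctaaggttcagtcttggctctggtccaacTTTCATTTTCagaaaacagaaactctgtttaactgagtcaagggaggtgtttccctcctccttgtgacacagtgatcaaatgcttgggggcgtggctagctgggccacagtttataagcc

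Bst2: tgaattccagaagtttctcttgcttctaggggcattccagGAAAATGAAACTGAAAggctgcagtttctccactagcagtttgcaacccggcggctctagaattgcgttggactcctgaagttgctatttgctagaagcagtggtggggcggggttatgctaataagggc

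Gbp7: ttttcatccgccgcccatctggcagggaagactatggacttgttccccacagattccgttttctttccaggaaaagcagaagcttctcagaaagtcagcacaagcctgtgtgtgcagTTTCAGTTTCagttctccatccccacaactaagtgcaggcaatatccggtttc

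Cmpk2: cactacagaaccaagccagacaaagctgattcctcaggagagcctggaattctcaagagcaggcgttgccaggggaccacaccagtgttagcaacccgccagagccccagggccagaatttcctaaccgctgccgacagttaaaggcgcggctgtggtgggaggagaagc

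Ifngr2: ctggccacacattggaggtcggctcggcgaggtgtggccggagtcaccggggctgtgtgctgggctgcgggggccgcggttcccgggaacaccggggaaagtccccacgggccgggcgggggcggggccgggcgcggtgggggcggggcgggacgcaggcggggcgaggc

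Ifit1 and Ifit3 each hold 2 matches in these stretches, in both genes on the strand opposite to the transcript, beginning at -104 and -85 from the start in Ifit1 and at -156 and -122 in Ifit3. In Bst2 the 2 matches overlap and read as 1 run of capitals.

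**Figure D2:**
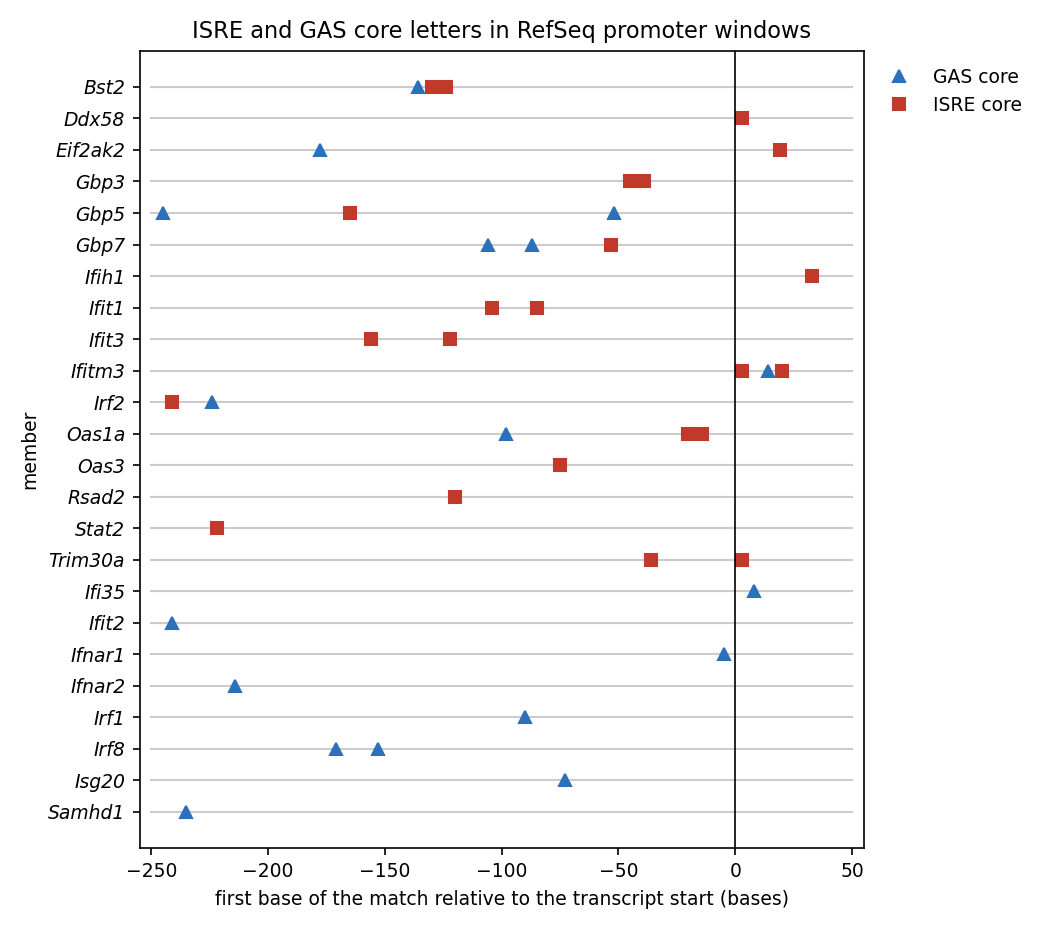
Position of the first base of each ISRE core (squares) and GAS core (triangles) relative to the transcript start (x axis, bases; windows of all listed starts combined) for the 24 members with either (y axis). Of the 16 members with the ISRE core, 11 have all their matches before the start.

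Of the 4 receptor chains Ifngr2 alone was called, and whether the chains differ from each other was not tested. Ifngr2, the signalling chain of the interferon gamma receptor, read 9.84, 9.90 and 9.77 on knockout 1, 2 and 3 and 9.51, 9.50 and 9.46 on the control arrays. The groups did not overlap, and the rise was 0.35 ± 0.05 on log2 (SE, n = 3 per group; 1.27-fold; limma adjusted p = 0.0122). The call was lost when any 1 control array was left out, with adjusted p values of 0.0549, 0.0636 and 0.0686. Its partner Ifngr1, the ligand-binding chain, read 9.87, 10.46 and 10.34 in the knockout pools and 9.92, 10.32 and 10.17 in the controls. These values overlapped, and the difference of 0.09 ± 0.17 did not pass (limma adjusted p = 0.833).

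Of the type I receptor, Ifnar2 read 10.27, 10.54 and 10.20 on the knockout arrays and 10.02, 10.08 and 10.03 on the control arrays. All knockout values lay above all control values, but the difference of 0.29 ± 0.09 did not pass (limma adjusted p = 0.11) and was 0.19 without knockout 2. Ifnar1 read 8.96, 9.12 and 9.04 in the knockout pools and 8.99, 9.04 and 8.98 in the controls, a difference of 0.04 ± 0.06 (limma adjusted p = 0.791) with a 95% confidence interval of -0.10 to 0.18. In the RefSeq gene order Ifnar1 lies directly beside Ifngr2 and 1 protein-coding gene away from Ifnar2.

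Of the 8 transcription factors 0 were called by limma and 2 had an unadjusted p under 0.05. Stat2, a part of the complex that type I interferons activate, read 8.56, 8.94 and 8.76 on the knockout arrays and 8.32, 8.49 and 8.56 on the control arrays. The lowest knockout value equalled the highest control value, and the difference was 0.30 ± 0.11 (limma adjusted p = 0.165, but 0.0481 without knockout 1). Irf9, the DNA-binding part of the same complex, read 8.12, 8.46 and 8.00 against 7.81, 7.97 and 8.04 in the controls. Knockout 3 lay below control 3, so the groups overlapped (0.25 ± 0.12; limma adjusted p = 0.3), and without knockout 2 the difference was 0.12. Irf7, which drives the production of type I interferons and is itself induced by them, read 7.06, 6.87 and 6.74 on the knockout arrays and 6.62, 6.71 and 6.61 on the control arrays. Its groups did not overlap, though knockout 3 exceeded control 2 by little (0.24 ± 0.09; limma adjusted p = 0.156), and without knockout 1 the difference was 0.16. The other 5 lay close to 0, from -0.05 for Irf8, a factor of myeloid and B cells, to 0.08 for Irf1, an early target of interferon gamma. For Irf3, the factor that starts interferon production, the 95% interval of the difference was -0.16 to 0.0833.

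All 5 sensors of nucleic acid had higher mean values in the knockout pools, and 1 was called. Zbp1 read 6.73, 6.88 and 6.56 on the knockout arrays and 6.35, 6.31 and 6.33 on the control arrays. The controls were tightly grouped and lay below every knockout pool, and the rise was 0.39 ± 0.08 (1.31-fold; limma adjusted p = 0.0333). The call was lost without knockout 1 (adjusted p = 0.0561) or without control 1, 2 or 3 (0.108, 0.133 and 0.125), and also when all 35556 probe sets were tested together (0.0727), a fit that called 1.16% of probe sets higher. Dhx58, which regulates the RNA sensors, read 6.17, 6.05 and 6.07 against 5.81, 5.69 and 5.98 (0.27 ± 0.08; limma adjusted p = 0.105), without overlap. The RNA sensors Ddx58 and Ifih1 differed by 0.13 ± 0.06 and 0.12 ± 0.06, and the kinase Eif2ak2, which halts translation, by 0.11 ± 0.07. None of these 3 passed.

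The Ifit and Oas families held Ifit1, the member with the smallest p, beside 7 genes that did not pass. Ifit1 read 6.65, 6.75 and 6.65 on the knockout arrays and 6.18, 6.11 and 5.99 on the control arrays. The knockout pools lay close together and well above the controls, and the rise was 0.59 ± 0.07 (1.51-fold; limma adjusted p = 0.00509). Ifit1 alone of the members was called whichever of the 6 arrays was left out, with adjusted p values from 0.00404 to 0.0332. Its family neighbours on the chromosome, which also bind RNA or act with Ifit1, were not called. Ifit3, which carries 2 ISRE cores like Ifit1, read 7.08, 7.77 and 7.19 against 7.14, 7.02 and 7.05, so only knockout 2 stood clearly apart (0.28 ± 0.17; limma adjusted p = 0.415), and without it the difference was 0.07. Ifit2 read 6.54, 6.93 and 6.89 against 6.87, 6.83 and 6.97, a difference of -0.10 ± 0.11 (limma adjusted p = 0.661). Whether Ifit1 differed from these 2 was not tested.

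Among the oligoadenylate synthetases, which make the messenger that activates RNase L, and their relatives, 0 were called by limma and Oasl2 alone had an unadjusted p under 0.05. Oasl2 read 7.87, 8.34 and 7.56 on the knockout arrays and 7.43, 7.28 and 7.46 on the control arrays. Its groups did not overlap, but the knockout pools ranged widely and the difference of 0.53 ± 0.18 did not pass (limma adjusted p = 0.14). Without knockout 2 it was 0.33. Its neighbouring gene Oasl1 read 7.15, 6.79 and 6.86 against 7.05, 7.12 and 6.83, a difference of -0.07 ± 0.12. The differences of Oas1a, Oas2 and Oas3 were 0.10 ± 0.11, 0.18 ± 0.08 and 0.15 ± 0.13.

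Rsad2, whose product viperin makes a chain-terminating nucleotide, had the largest difference of the members. It read 10.35, 9.44 and 9.13 on the knockout arrays and 8.96, 8.65 and 7.78 on the control arrays. Every knockout pool exceeded every control pool, yet the pools of each group spread over more than 1 unit on log2 (SD 0.63 and 0.61). The difference was 1.18 ± 0.39 (2.26-fold; 95% interval 0.26 to 2.09), which did not pass (limma adjusted p = 0.128). In a paired fit, in which pools sharing a replicate number form a block, the adjusted p was 0.0113, since pools of the same number differed by 1.39, 0.79 and 1.35. The pairing rests on all genes, and over the members the deviations of the second pair correlated at -0.22. This block raised the members called to 4, all higher, against 3.08% of all genes.

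Cmpk2, a nucleotide kinase that supplies viperin's substrate, is the direct neighbour of Rsad2 and had lower mean values in the knockout pools. It read 7.75, 7.67 and 7.06 in the knockout pools and 7.79, 7.85 and 7.78 in the controls. All knockout values were lower, knockout 3 by far the most, and the difference of -0.31 ± 0.17 did not pass (limma adjusted p = 0.356). Without knockout 3 it was -0.10. The separation was small, and after centring each array on its median 0 members had all knockout values below all controls. The same centring left 19 members with all knockout values above all controls, in place of 16. Shares over all genes were not computed for this centring. The pair of Rsad2 and Cmpk2 was chosen for description after its values were seen.

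**Figure D3:**
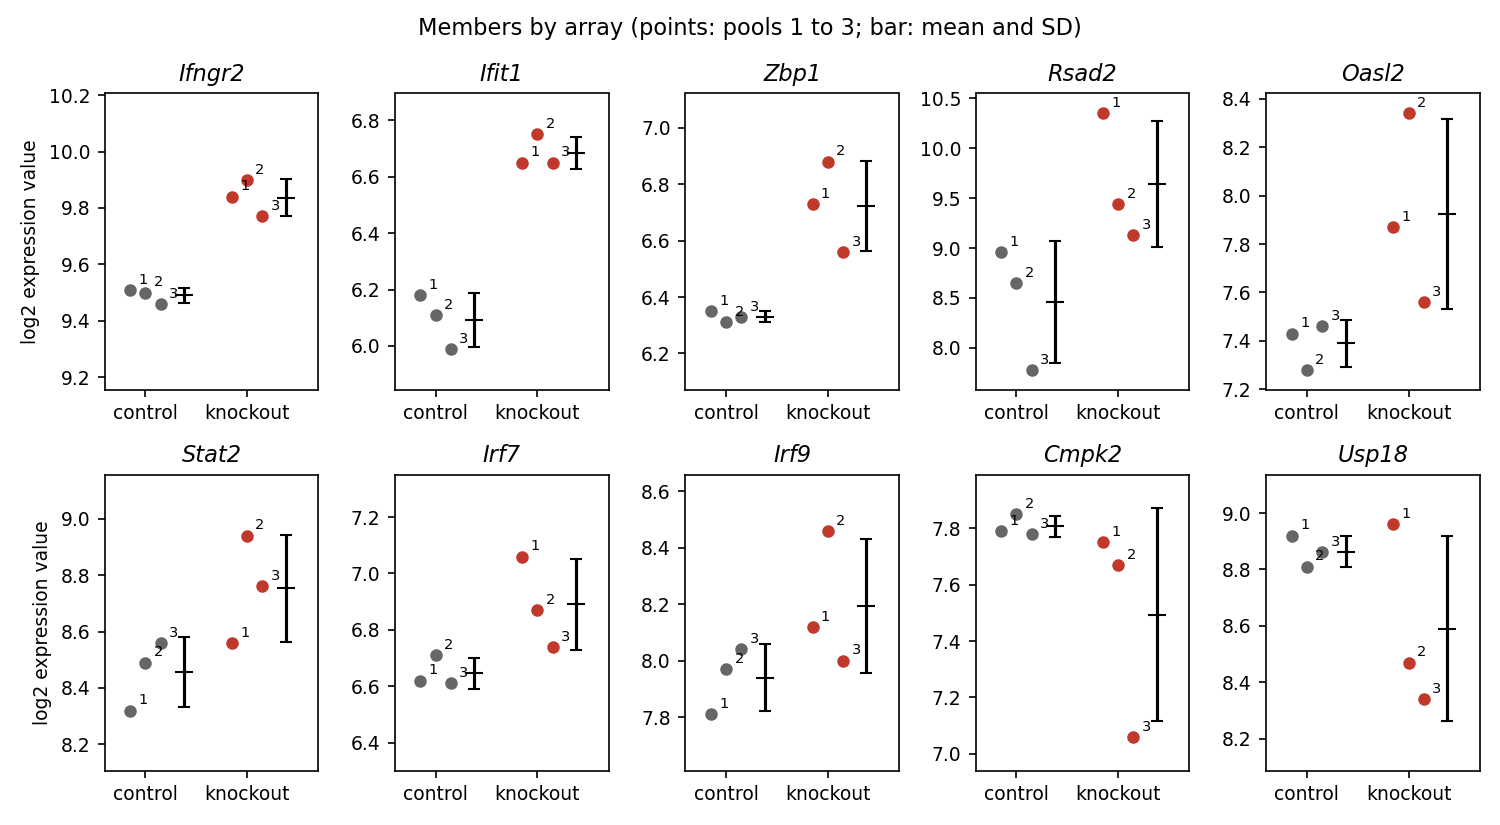
Log2 expression value (y axis, scaled to each gene) of 10 members in the 3 control pools (grey) and the 3 knockout pools (red), with pool numbers beside the points and bars for the mean and SD. The knockout values of Ifngr2, Ifit1, Zbp1, Rsad2, Oasl2 and Irf7 lie above all controls and those of Cmpk2 lie below them. Usp18 is high only on knockout 1 among the knockout pools.

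Of the 9 other antiviral effectors, Rsad2 and Cmpk2 among them, 0 were called by limma and 4 had an unadjusted p under 0.05. Bst2, a tether that holds budding virus at the cell surface, read 8.22, 8.18 and 8.13 against 8.05, 8.02 and 7.85 (0.20 ± 0.07; limma adjusted p = 0.133), without overlap. Ifitm1, which hinders viral fusion, read 9.45, 10.09 and 9.65 against 9.33, 9.39 and 9.34 (0.38 ± 0.15; limma adjusted p = 0.2), and without knockout 2 the difference was 0.20. Its neighbour Ifitm3 read 11.04, 11.70 and 10.95 against 11.14, 11.22 and 11.19, so that knockout 2 was above and the other knockout pools below every control (0.05 ± 0.18). Samhd1, which depletes nucleotides, read 10.14, 10.42 and 10.44 against 10.11, 10.14 and 9.99 (0.25 ± 0.09; limma adjusted p = 0.164). The exonuclease Isg20 and the dynamin-like Mx1 and Mx2 differed by 0.07 ± 0.13, 0.09 ± 0.06 and -0.02 ± 0.16. The levels of Mx1 and Mx2 lay in the lowest 25% of genes, so their small differences say little.

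Usp18, which removes Isg15 from proteins and damps receptor signalling, did not share the upward lean. It read 8.96, 8.47 and 8.34 on the knockout arrays and 8.92, 8.81 and 8.86 on the control arrays, a difference of -0.27 ± 0.15 (limma adjusted p = 0.363). Knockout 1, the array with raised T cell markers, was the exception to lower values. Without it the difference was -0.46 and Usp18 was called lower (limma adjusted p = 0.00808), whereas without knockout 3 it was -0.15. Without knockout 1 the members called higher were 5 in place of 3, namely Ifngr2, Ifit1, Stat2, Samhd1 (adjusted p = 0.0221) and Ifitm1 (0.0498). Of all genes 3.33% were then called higher and 6.34% lower. Without knockout 2 or knockout 3, 3 members were called higher, against 4.19% and 1.55% of all genes. Without control 1, 2 or 3 only Ifit1 was called, against 1.03%, 0.722% and 0.792%. The ubiquitin ligase Trim25, which activates Ddx58, differed by 0.06 ± 0.06. Trim30a, a ligase induced in immune cells, read 5.73, 5.84 and 5.39 against 5.36, 4.98 and 5.36 (0.42 ± 0.15; limma adjusted p = 0.149), without overlap. Its level lay in the lowest 25% of genes.

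The guanylate-binding proteins, GTPases that attack vacuoles holding pathogens, all overlapped between the groups. Gbp3, Gbp5 and Gbp7 differed by 0.18 ± 0.14, 0.05 ± 0.13 and 0.11 ± 0.14. In each of them knockout 2 was the highest of the 6 arrays, at 7.17, 5.40 and 7.77, and knockout 3 read lower than knockout 1. The level of Gbp5 lay in the lowest 25% of genes.

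The remaining induced genes all had positive differences, 0 of 6 were called by limma and 2 had an unadjusted p under 0.05. Rtp4, a chaperone-like protein, read 7.91, 8.43 and 7.92 against 7.68, 7.52 and 7.88 (0.39 ± 0.16; limma adjusted p = 0.203), and without knockout 2 the difference was 0.22. Parp9 and Parp14, ADP-ribosyltransferases that act together, differed by 0.19 ± 0.08 and 0.16 ± 0.06, both without overlap between the groups, and Parp12 by 0.07 ± 0.06. Ifi35 read 7.91, 8.29 and 7.97 against 7.88, 7.81 and 7.82 (0.22 ± 0.10; 0.10 without knockout 2), again without overlap. Xaf1, a pro-apoptotic protein, read 7.04, 7.47 and 7.07 against 7.09, 7.04 and 7.05, and only knockout 2 stood above the controls. Its difference was 0.13, and -0.005 without that pool.

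The members ranked unevenly among the knockout pools. Knockout 2, the male pool and the one with the highest average of fibroblast markers, read highest of the 3 in 28 of the 46 members (60.9%). It did so in 27.1% of all genes. Knockout 1 was highest in 14 members (30.4%, against 41.1%) and knockout 3 in 3 (6.52%, against 27.8%). Knockout 3 was the lowest of its group in 24 (52.2%, against 29.7%). Members that read above all 3 controls numbered 28, 36 and 22 on knockout 1, 2 and 3, which is 60.9%, 78.3% and 47.8%, against 37.1%, 33.0% and 33.1% of all genes. The lean upward was therefore present in each of the 3 pools and widest in knockout 2. The 14 members that were highest on knockout 1 included Rsad2, Cmpk2, Irf7, Usp18, Isg20, Oasl1 and Oas3. The 28 that were highest on knockout 2 included the Ifit genes, the guanylate-binding proteins, both Ifitm genes, Stat2, Irf9 and all 4 receptor chains. The part of sex and of fibroblasts in this was not tested. These counts were made after the values were seen and have no test. With the first number of the titles, whose meaning is not stated, as a random block, 14 members were called higher, but so were 9.41% of all genes. Among the control pools the ranks were more even, with control 1, 2 and 3 highest in 16, 15 and 12 members. With the sex of the pools as a term in the fit the same 3 members were called (2.38% of all genes higher), with adjusted p values of 0.0116 for Ifit1, 0.0236 for Ifngr2 and 0.0381 for Zbp1. Of the other pathway genes described next, Ifi203 and Psmb9 lost their calls with that term (adjusted p = 0.0514 and 0.0737), which left 9 called higher in place of 11.

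**Figure D4:**
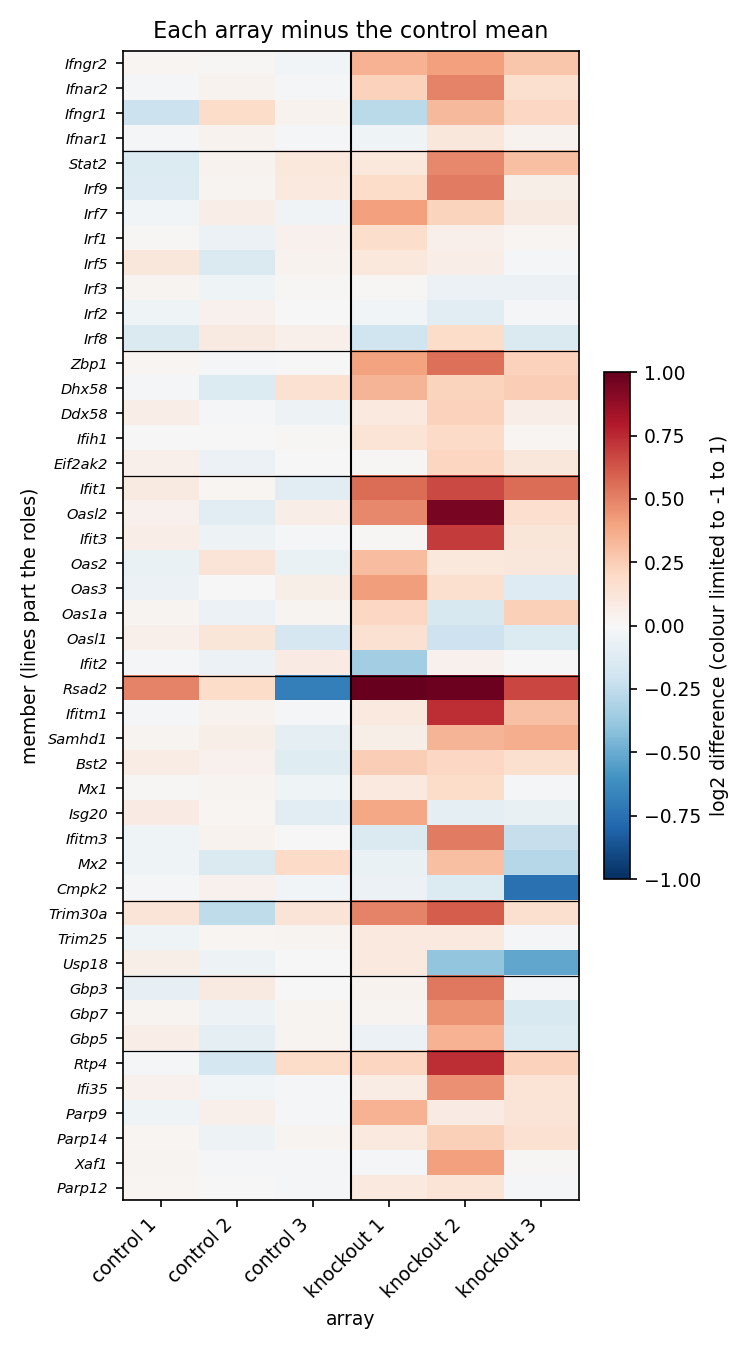
Log2 value of each array minus the mean of the 3 control arrays (colour, limited to -1 to 1) for the 46 members (y axis, lines part the roles) on the 6 arrays (x axis). Red is more extensive on knockout 2, where 36 members read above every control, than on knockout 1 and 3, where 28 and 22 did.

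Of the other genes of the interferon pathway, 97 of 122 listed symbols were measured, the list holding older names of some genes. Of these 11 rose, 1 fell and 85 did not pass (11.3% higher, against 3.36% of all genes called higher and 5.13% called lower). The rise lay mostly among further interferon-induced genes, where 9 of 57 were higher and 0 lower. No interferon was among the genes called. The list was chosen with earlier results of these data known, so these shares are a description and not a test.

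Of the 16 interferon genes measured, 0 were called by limma and 0 had an unadjusted p under 0.05. Their differences ran from -0.13 for Ifnb1, the first type I interferon made after infection, to 0.13 for Ifna9, with a median of -0.06. The other two with the smallest p were Ifna5 (-0.11 ± 0.08) and Ifna11 (-0.11 ± 0.07). Many alpha interferon genes are near copies of each other, so single probe sets are uncertain. Ifnb1, Ifna4, Ifna9, Ifna11, Ifna12, Ifna13, Ifnab, Ifne and Ifnk also lay in the lowest 25% of genes by level. At such levels a lack of calls says little about these interferons. Of the 5 measured lambda receptor chains and kinases 0 were called by limma, 2 had an unadjusted p under 0.05, and the kinase Jak2 (0.20 ± 0.06; adjusted p = 0.0848), the receptor chain Il10rb (-0.17 ± 0.07; 0.221) and the lambda receptor Ifnlr1 (-0.09 ± 0.08; 0.607) came nearest.

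Among 11 measured genes that lead to interferon production, Sting1, the adaptor through which cytosolic DNA is signalled, had the largest rise. It read 9.59, 9.62 and 9.40 on the knockout arrays and 8.80, 8.87 and 8.67 on the control arrays, a rise of 0.76 ± 0.08 (1.69-fold; limma adjusted p = 0.00487). The groups were far apart and the call held whichever array was left out. Ikbke, a kinase that activates Irf3 and Irf7, read 7.23, 7.23 and 6.95 against 7.56, 7.55 and 7.62 and fell by 0.44 ± 0.09 (limma adjusted p = 0.0248). It was called in 3 of the 6 fits that left out an array. The DNA receptor Tlr9 stood at -0.23 ± 0.07 (adjusted p = 0.0969). Of 8 negative regulators the phosphatase Ptpn11 rose by 0.27 ± 0.05 (limma adjusted p = 0.0236, but 0.0507 with the block), and Socs3 (0.28 ± 0.11) and Ptpn2 (0.18 ± 0.07) did not pass.

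Ifi203, the further induced gene with the largest rise, is one of a cluster of near-identical DNA-binding proteins, so its probe set may read its relatives. It read 6.41, 6.75 and 5.70 on the knockout arrays and 5.27, 5.30 and 5.24 on the control arrays (1.02 ± 0.24; 2.02-fold; limma adjusted p = 0.0459), and was called in 1 of the 6 fits that left out an array. Ifi27l2a, a small mitochondrial protein, rose by 0.72 ± 0.15 (adjusted p = 0.0282, but 0.0509 with the block). The guanylate-binding proteins Gbp4 and Gbp9 rose by 0.58 ± 0.11 and 0.41 ± 0.07, although 0 of the 3 measured guanylate-binding members was called by limma or had an unadjusted p under 0.05. Gbp4 lay in the lowest 25% of genes by level, and Ifi203 just above that limit. Herc6, the ligase that joins Isg15 to proteins, read 8.22, 8.16 and 8.12 against 7.78, 7.66 and 7.81 and rose by 0.42 ± 0.06 (limma adjusted p = 0.00981). It was called in all 6 fits that left out an array.

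Cxcl9, a chemokine that attracts T cells, read 6.89, 6.88 and 6.69 against 6.40, 6.22 and 6.21 (0.54 ± 0.08; limma adjusted p = 0.0105). Ciita, the master regulator of MHC class II genes, read 7.50, 7.41 and 7.31 against 7.04, 6.90 and 6.93 (0.45 ± 0.07; adjusted p = 0.0114). The immunoproteasome subunits Psmb8 and Psmb9 rose by 0.46 ± 0.08 and 0.25 ± 0.06 (adjusted p = 0.0182 and 0.039), Psmb9 with an adjusted p of 0.0592 with the block. In Cxcl9, Ciita, Psmb8, Gbp4 and Gbp9 the knockout and control arrays did not overlap. Cxcl9 and Ciita were called in 4 of the 6 fits that left out an array, Psmb8, Gbp9 and Ifi27l2a in 3, Gbp4 and Ptpn11 in 2 and Psmb9 in 1.

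**Figure D5:**
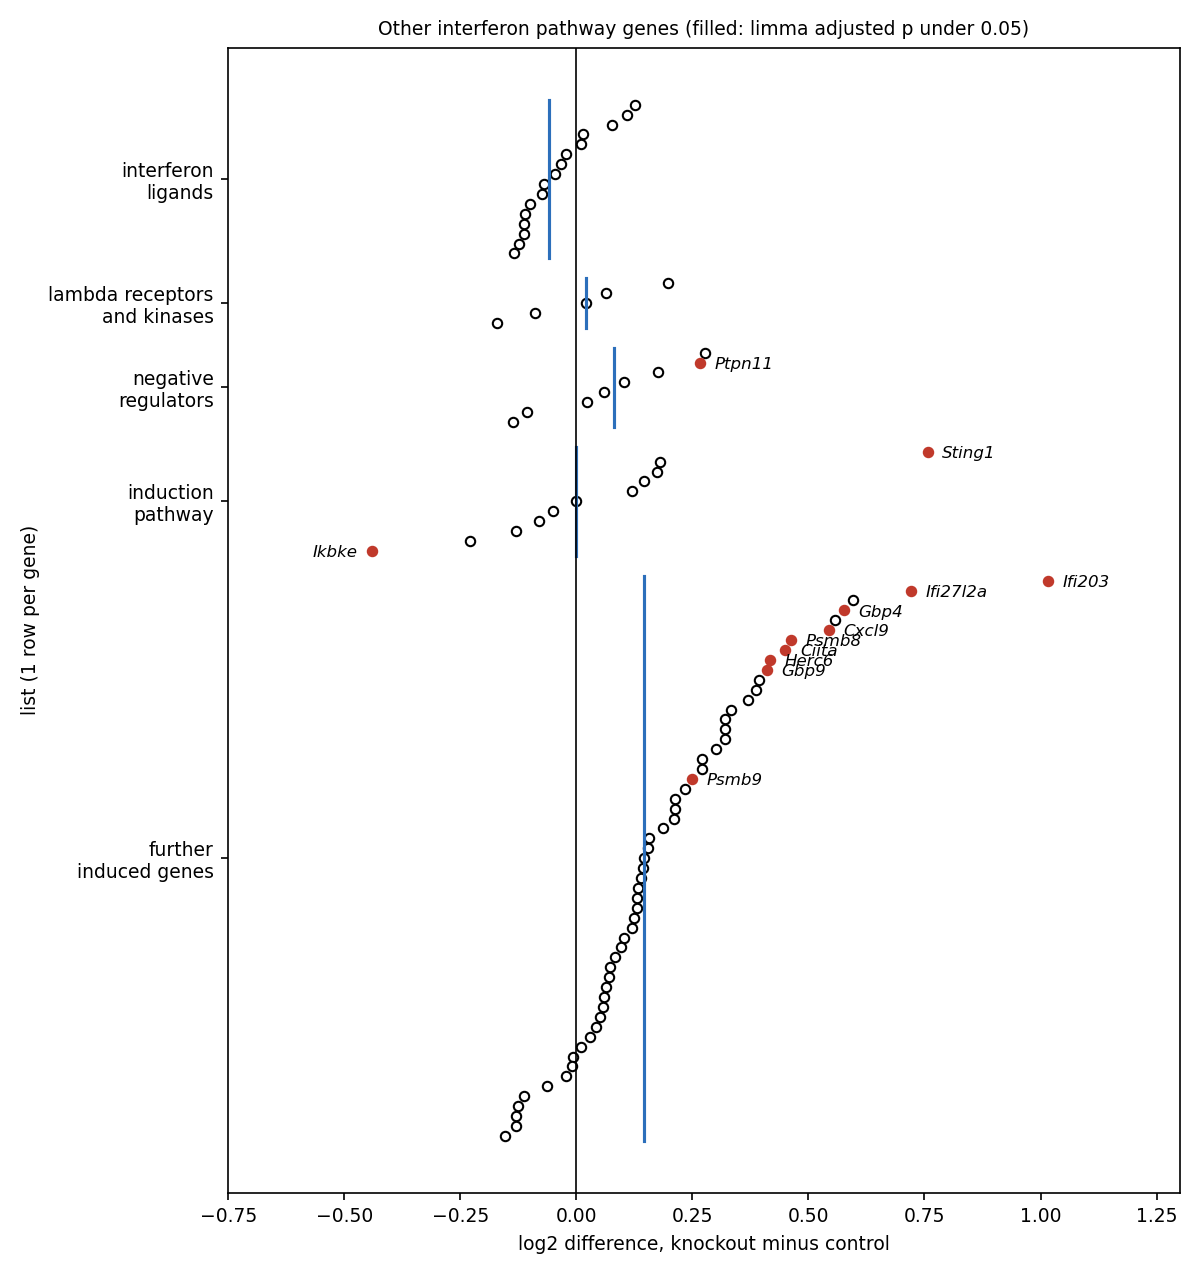
Log2 difference, knockout minus control (x axis), of the 97 measured other pathway genes, 1 row per gene in 5 lists (y axis), with a blue line at each list's median. Filled points mark the 11 genes called higher and Ikbke, the 1 called lower, and the 16 interferon genes lie between -0.13 and 0.13.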

How the data were processed

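Each group gave 3 Affymetrix arrays. The deposited values are log2 expression from RMA, run by the authors in Expression Console 1.1 according to the submitters' processing notes. RMA equalises the arrays' distributions, so a shift shared by most genes is removed. The sources used here give no genome build for it. Of 35556 probe sets 21789 had 1 symbol, giving 19938 genes. Groups came from the sample titles. They were compared with limma 3.58.1 in R 4.3.3 (lmFit, eBayes, two-sided, no filter), checked on simulated data. The p-values measure the spread between pools, and 3 arrays a group limit the precision. An exact permutation test could not go below p = 0.1 and is not given.

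Members and lists were chosen with earlier results of these data known. Full statistics were due for members called with or without the block, those differing by at least 0.5 on log2, Stat2, Irf7, Irf9 and the receptors. Other members are given more briefly, and other pathway genes where called or among the 3 smallest p of a list.

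Both groups share replicate numbers. Same-numbered arrays' deviations from their group means correlated at 0.192, 0.103 and 0.111 over all genes, each just over the limit of 0.1. Pairing by these numbers thus rests on the values alone. It was run as an alternative, and the main fit had no block. The pools numbered 1, and those numbered 2, were of opposite sex. Over the 46 members the correlations were 0.582, -0.225 and 0.258, so the second pair ran the other way in these genes. Alternatives were this pairing as a block, each array left out, other probe set rules, a filter on low genes, eBayes trend, array weights, scalings, pool sex and the first title number (9, 9 and 11, against 8, 8 and 10). If that number is a batch, it cannot be told apart from the group.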

Additional observations from a re-analysis of the deposited data

How the results depend on the processing

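The 11 members with full values kept their direction in 173 of 176 values under 16 alternatives. The 3 that reversed lay near 0, namely Ifnar1 without knockout 2 (-0.0033) and Ifngr1 without knockout 2 (-0.0317) or control 1 (-0.0217). With 1 array left out Ifnar1 ranged from -0.0033 to 0.0767 and Ifngr1 from -0.0317 to 0.2633. Members called higher numbered 1 to 5 when 1 array was left out, with 1 without control 1, 2 or 3 and 5 without knockout 1, and members called lower 0 to 1. Other pathway genes called higher numbered 2 to 13 and lower 0 to 2. They were 4 higher without control 1, 2 without control 2 or 3, and 0 lower without any 1 control, while 2 were lower without knockout 1. Of all genes 0.722% (without control 2) to 4.19% (without knockout 2) were called higher in these fits, and 6.34% lower without knockout 1. Leaving out a control leaves 2 arrays in its group. Testing all 35556 probe sets gave 7 pathway genes higher and 0 lower. With the first title number as a random block, 14 members were higher, and 28 pathway genes were higher and 3 lower, where the share of all genes called higher rose too. The within-block correlation was then -0.51, which narrows the error of a group difference. With the replicate block 4 members were higher, Rsad2 being added, and 10 other pathway genes were higher. Among the latter Ptpn11, Ifi27l2a and Psmb9 lost their calls. Cxcl10 and Ifi27 gained theirs (limma adjusted p = 0.0228 and 0.0298 with the block, 0.114 and 0.0767 without it). After median centring 0 members lay below all controls, in place of 1, and 19 lay above all controls, in place of 16. The shares of all genes were not computed for that centring. The median member difference stayed above 0 in all 16 alternatives, from 0.0917 to 0.191.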

Other observations

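Probe sets that the annotation gives to several genes entered no comparison. The one shared by Isg15, the ubiquitin-like modifier, and Gm9706 read 6.06, 5.83 and 5.84 on the knockout arrays and 5.84, 5.67 and 5.64 on the control arrays, where knockout 3 equalled control 1 and knockout 2 lay just under it. The one shared by Gbp2 and Gbp2b read 7.61, 7.88 and 7.38 against 7.44, 7.25 and 7.36, with knockout 2 highest as for Gbp3, Gbp5 and Gbp7. The one shared by Oas1a and Oas1g read 6.93, 6.90 and 6.54 against 6.61, 6.62 and 6.44. Its difference was 0.23, and that of the probe set for Oas1a alone was 0.10.

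A second probe set existed for 2 members. That of Ifitm1 read 8.70, 9.47 and 9.10 on the knockout arrays and 8.48, 8.70 and 8.49 on the control arrays, a difference of 0.53 where the probe set used gave 0.38, and knockout 2 was highest on both. That of Irf1 differed by -0.11 where the one used gave 0.08, so the 2 probe sets disagreed in sign.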
